A study of Homo sapiens with 6 samples.

Results

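The ERBB receptors, their EGF-like ligands and a receptor inhibitor were examined in A549 cells, a human lung adenocarcinoma line, with and without overexpression of IL17D, a cytokine of the IL-17 family. The group was chosen by gene name and holds 10 of the 58735 genes in the deposited count table. It comprises the receptors EGFR, ERBB2, ERBB3 and ERBB4, the ligands AREG, EREG, HBEGF, TGFA and BTC, and ERRFI1. All 10 had 1 row each, and 9 had enough counts to be tested. ERBB4 did not. RNA was sequenced from 3 libraries of cells that overexpressed IL17D (IL17D cells) and from 3 libraries of cells that carried the empty vector (control cells). According to the study's methods, the IL17D reading frame was cloned from another lung cancer line into a lentiviral vector with the human PGK promoter, an internal ribosome entry site and GFP. Both groups therefore share the A549 background, the vector backbone and culture in RPMI medium with serum. The sources do not tell if replicate libraries stem from independent transductions or cultures, so the p-values measure only the spread between these libraries.

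The ERBB receptors are tyrosine kinases of the cell surface that pair with one another when a ligand binds, and they signal through RAS-ERK and PI3K-AKT. Ligands are made as membrane-bound precursors and are released by metalloproteases of the ADAM family, so that a cell can stimulate itself and its neighbours. AREG, TGFA and EGF bind EGFR, whereas HBEGF, EREG and BTC bind both EGFR and ERBB4. ERBB2 has no ligand of its own, and ERBB3 has little kinase activity and works through its partner. ERRFI1, also called MIG6, is a cytoplasmic protein that binds the kinase domain of EGFR and blocks it, and its gene is switched on by growth factors as a feedback. In lung adenocarcinoma, EGFR is a well-known driver.

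Library totals lay between 14319398 and 16521021 counts. IL17D itself had 18 to 34 counts in the control libraries and 26772 to 32155 counts in the IL17D libraries, so every library matched its label. The epithelial keratins KRT8 (7201 to 7779 CPM, counts relative to the scaled library size) and KRT18 (3504 to 3717 CPM) were abundant. E-cadherin (CDH1) was present at 32.4 to 46.2 CPM. The epithelial markers EPCAM (0.622 to 1.31 CPM) and KRT19 (0.185 to 0.669 CPM) were close to absent. The lung lineage markers NKX2-1, SFTPC and SFTPB had at most 9 counts in any library and NAPSA at most 37. Of the leukocyte markers, PTPRC and CD2 had no count and CD14 had 8 to 20 counts, with a summed level of 0.497 to 0.923 CPM in control cells and 0.608 to 1.22 CPM in IL17D cells. The 3 fibroblast markers summed to 22.5 to 25.0 CPM in control cells and 19.5 to 23.9 CPM in IL17D cells, nearly all of it COL1A1. The 3 endothelial markers summed to at most 0.435 and 0.608 CPM. The 5 epithelial markers summed to 11119 to 11539 CPM in control cells and 10802 to 11040 CPM in IL17D cells, and the 4 lung lineage markers to 1.43 to 3.08 and 0.851 to 1.58 CPM. CDH1 was lower in every IL17D library than in any control library (log2 fold change -0.28, edgeR adjusted p = 0.031). The part of these markers in the results that follow was not tested.

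The promoters of 4 members are shown. ERRFI1 and HBEGF were the members whose groups did not overlap. AREG and EREG were the most abundant of the 5 ligands and lie close together on chromosome 4. Each promoter is the 250 bases before the start of the gene in RefSeq (build GRCh38.p14), read 5′ to 3′ on the gene's own strand. Capitals mark matches on either strand to 5 motifs: the cAMP response element (TGACGTCA), AP-1 (TGACTCA), the TATA box (TATAAA), the CCAAT box (CCAAT) and the GC box (GGGCGG).
ERRFI1 (chr1:8026310-8026559, minus strand): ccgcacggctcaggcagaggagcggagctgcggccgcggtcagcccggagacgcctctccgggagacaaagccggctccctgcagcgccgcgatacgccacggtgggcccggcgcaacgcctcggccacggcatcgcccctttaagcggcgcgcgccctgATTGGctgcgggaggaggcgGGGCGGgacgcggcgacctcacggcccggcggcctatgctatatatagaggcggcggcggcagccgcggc
HBEGF (chr5:140346604-140346853, minus strand): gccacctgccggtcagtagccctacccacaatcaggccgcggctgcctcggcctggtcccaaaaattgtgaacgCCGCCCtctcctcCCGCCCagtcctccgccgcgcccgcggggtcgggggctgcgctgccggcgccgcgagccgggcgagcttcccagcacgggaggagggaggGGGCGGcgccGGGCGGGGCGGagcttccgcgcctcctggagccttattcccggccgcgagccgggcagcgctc
AREG (chr4:74444886-74445135, plus strand): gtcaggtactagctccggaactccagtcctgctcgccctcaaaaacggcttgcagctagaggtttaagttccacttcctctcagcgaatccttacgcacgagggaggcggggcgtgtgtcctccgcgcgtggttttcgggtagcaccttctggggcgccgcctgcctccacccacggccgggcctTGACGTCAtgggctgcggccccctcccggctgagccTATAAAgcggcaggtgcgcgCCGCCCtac
EREG (chr4:74364895-74365144, plus strand): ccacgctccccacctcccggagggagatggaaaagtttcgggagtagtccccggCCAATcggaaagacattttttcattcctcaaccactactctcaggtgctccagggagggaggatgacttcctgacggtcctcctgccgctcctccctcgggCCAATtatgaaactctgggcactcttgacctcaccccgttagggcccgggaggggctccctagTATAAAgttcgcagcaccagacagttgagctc
The AREG window held a cAMP response element 58 to 65 bases before the start and a TATA box 24 to 29 bases before it. The EREG window held a TATA box at nearly the same place, 27 to 32 bases before the start, and 2 CCAAT boxes. ERRFI1 had 1 CCAAT box, on the opposite strand, and 1 GC box. Only the exact letters of each motif were searched. The ERRFI1 window also holds the run tatatata near its end, which this search did not count as a TATA box. HBEGF had 5 GC boxes, of which the pair nearest the start shares 1 base. Of 35116 promoter windows of the same length, 1.65% held the cAMP response element, 4.2% AP-1, 10.7% the TATA box, 32.0% the CCAAT box and 42.6% the GC box. None of these 4 windows matched AP-1. Promoter entries were found for 9 of the 10 members. A match describes letters in the window and no factor was measured there. Any link between these matches and the RNA levels was not tested.

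The comparison of IL17D with control cells asked whether overexpression of the cytokine went along with a change in the RNA of this receptor system. Of the 9 tested members, ERRFI1 rose and the other 8 did not pass the test. EGFR and ERBB2 stayed within narrow limits, AREG and EREG differed by a few percent, and HBEGF was 1.48-fold higher in IL17D cells without passing. Differential expression was called by the quasi-likelihood method of edgeR, with p adjusted after Benjamini and Hochberg over the 15754 tested genes and a threshold of 0.05. This called 1 of 9 members, against 1.58% of all tested genes. The groups did not overlap for 2 of the 9, both higher in IL17D cells, against 15.8% of all tested genes in either direction (7.48% higher and 8.31% lower). An unadjusted p under 0.05 was found for the same 2 members, against 11.6%. Each of these shares rests on 1 or 2 genes, and nothing is drawn from them about the group. The median log2 fold change of the 9 members was 0.02, with 5 higher and 4 lower, beside a median of -0.0004 over all tested genes. In RNA from whole cultures, fewer cells that express a gene and less RNA per cell cannot be told apart.

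**Figure D1:**
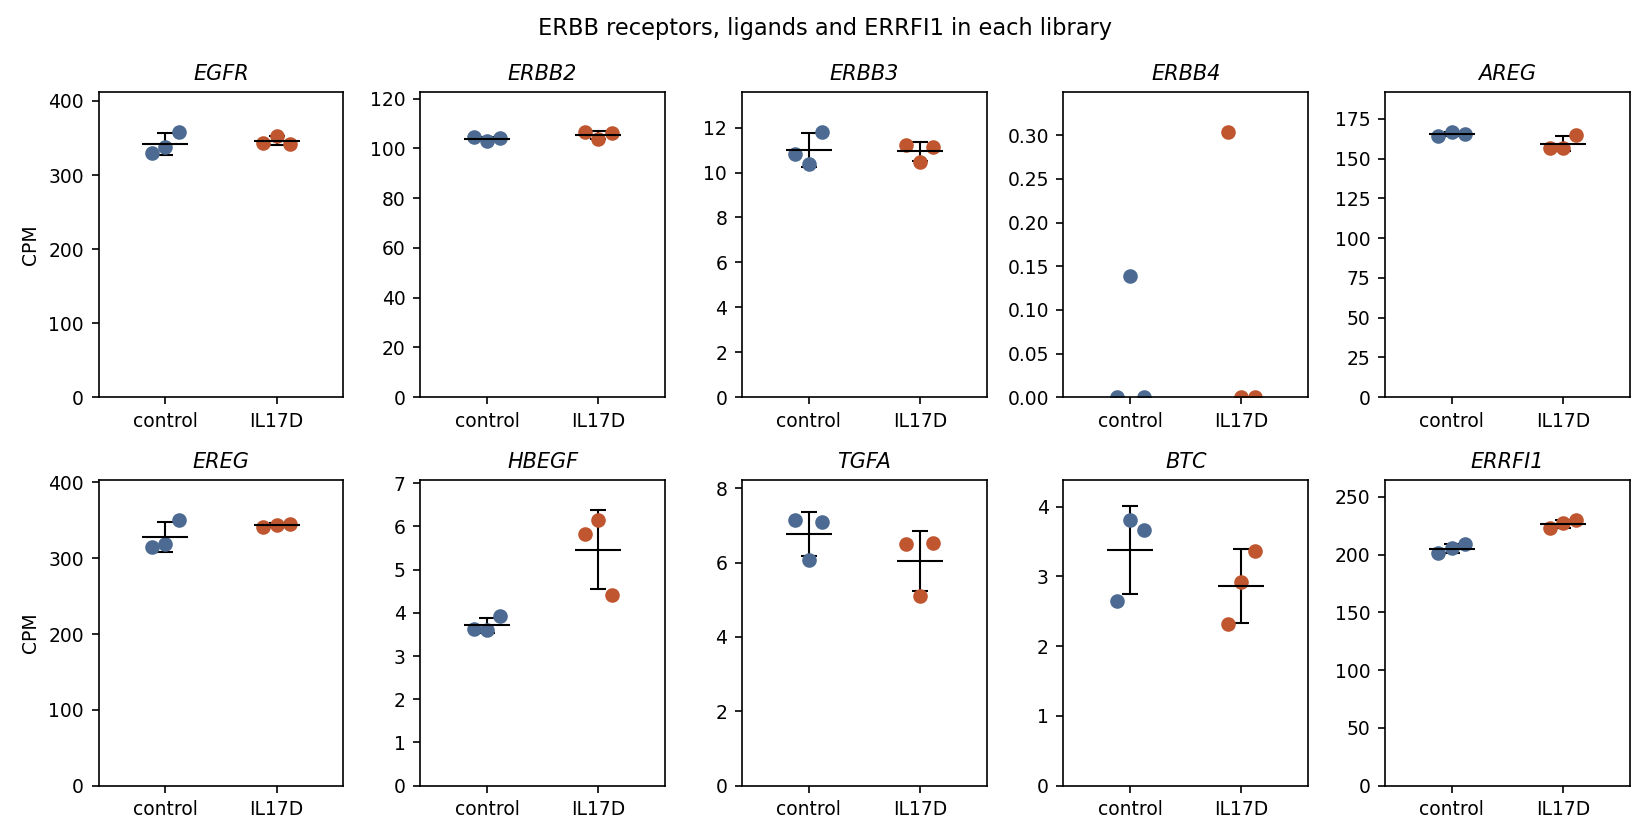
CPM of each member in the 3 control and 3 IL17D libraries, 1 point per library, with bars for the mean ± SD (none for ERBB4) and every axis starting at 0. ERRFI1 and HBEGF are the members in which all IL17D points lie above all control points.

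Among the receptors, EGFR (chromosome 7 of GRCh38, 55019021 to 55211628) had 329, 338 and 358 CPM in control replicates 1, 2 and 3 and 343, 353 and 342 CPM in the IL17D replicates. The IL17D libraries all lay inside the range of the controls. The log2 fold change was 0.02 (standard error, SE, 0.035, edgeR adjusted p = 0.90), and its 95% interval reached from 0.964-fold to 1.06-fold. ERBB2 (chromosome 17, 39687914 to 39730426), the preferred partner of the other receptors, had 105, 103 and 104 CPM in control cells and 107, 104 and 106 CPM in IL17D cells. These groups overlapped as well, with an interval from 0.954-fold to 1.08-fold. ERBB3 (chromosome 12, 56076799 to 56103505), which recruits PI3K, had 10.8, 10.4 and 11.8 CPM in control cells and 11.2, 10.5 and 11.1 CPM in IL17D cells. With 150 to 190 counts per library its interval was wider, from 0.842-fold to 1.17-fold. A rise of 1.10-fold, the size seen for ERRFI1, therefore lies outside the intervals of EGFR and ERBB2, and for ERBB3 it was not detectable at this depth. ERBB4 (chromosome 2, 211375717 to 212538841) had 2 counts in control replicate 2, 5 counts in IL17D replicate 1 and none in the other 4 libraries. At this depth, the upper limit for a library without counts is 3 counts (0.182 to 0.210 CPM), counting error only. No fold change is given for ERBB4.

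ERRFI1 (chromosome 1, 8004404 to 8026308, minus strand) was the member that rose. It had 3269, 2973 and 3358 counts in the control replicates and 3663, 3743 and 3278 counts in the IL17D replicates. After scaling, these were 201, 206 and 209 CPM in control cells and 223, 228 and 230 CPM in IL17D cells, so the lowest IL17D library stood above the highest control. The group means were 205 ± 3.83 CPM and 227 ± 3.62 CPM (SD, n = 3 each). The log2 fold change was 0.14 (SE 0.037, edgeR adjusted p = 0.033), which is 1.10-fold with a 95% interval from 1.05 to 1.16. This call depended on single libraries. It was kept without control replicate 3 (edgeR adjusted p = 0.023). It was lost without control replicate 1 (0.13) or 2 (0.11) and without IL17D replicate 1 (0.077), 2 (0.11) or 3 (0.19), while the log2 fold change stayed between 0.13 and 0.16. The ratio of ERRFI1 to EGFR, both per kilobase of gene length, was 1.83, 1.82 and 1.74 in control cells. In IL17D cells it was 1.94, 1.93 and 2.01, without overlap. This ratio reuses the same ERRFI1 values over an EGFR level that hardly differed, so it adds no separate evidence.

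**Figure D2:**
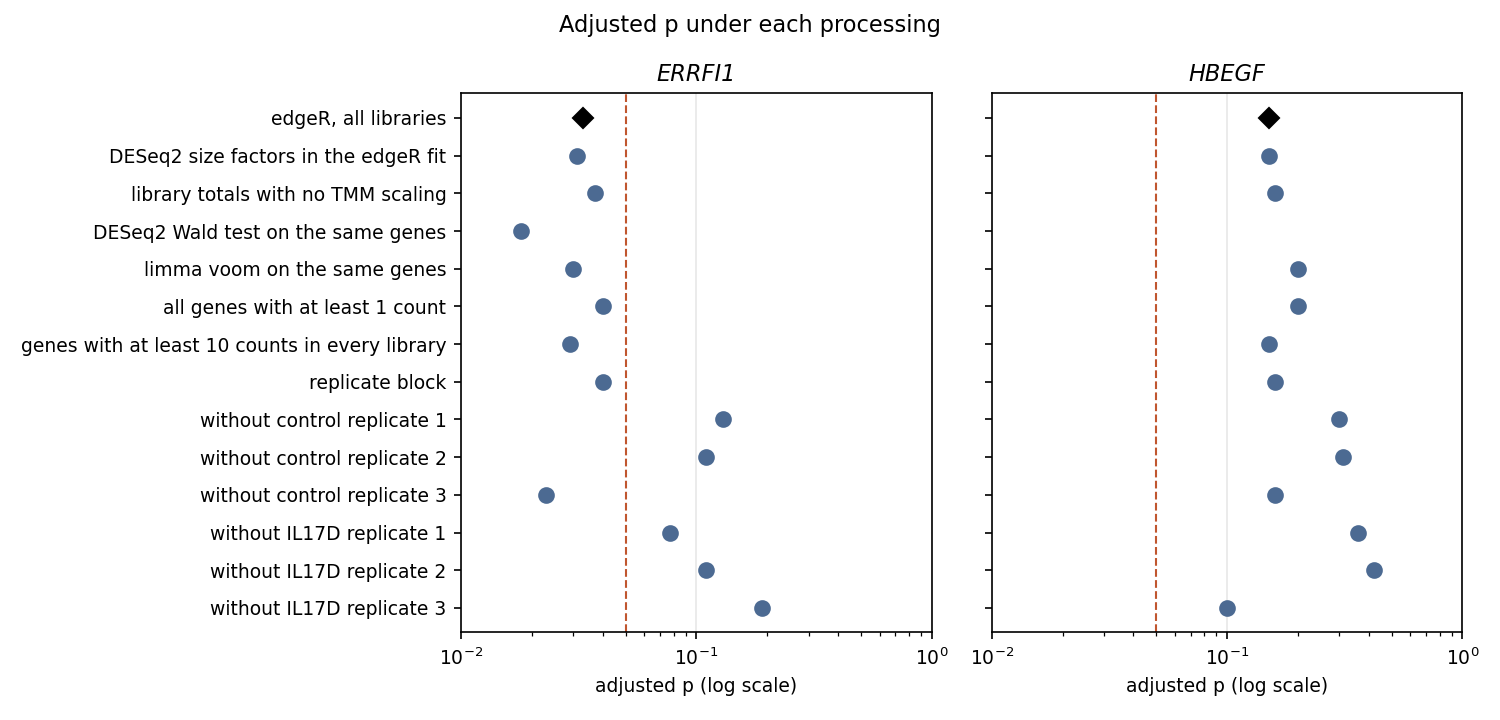
Adjusted p (x axis, log scale) of ERRFI1 and HBEGF under each processing (y axis), with a black diamond for the edgeR test on all libraries and a dashed line at 0.05. ERRFI1 lies left of the line with all 6 libraries and right of it in 5 of the 6 cases with 1 library left out, and HBEGF lies right of it throughout; DESeq2 gave no adjusted p for HBEGF.

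The ligand with the largest difference was HBEGF (chromosome 5, 140332843 to 140346631, minus strand), which encodes heparin-binding EGF-like growth factor. It had 59, 52 and 63 counts in the control replicates and 96, 101 and 63 counts in the IL17D replicates. On the scaled level these were 3.63, 3.59 and 3.92 CPM against 5.84, 6.14 and 4.41 CPM. All IL17D libraries were above all controls, and IL17D replicate 3 lay nearer to the controls than to the other IL17D libraries. The log2 fold change was 0.56 (SE 0.19), with an interval from 1.14-fold to 1.92-fold. The unadjusted edgeR p was 0.0047 and did not pass after adjustment (0.15). Over the alternatives with an adjusted p it ran from 0.10 to 0.42, and the log2 fold change from 0.47 to 0.69.

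AREG and EREG, which encode amphiregulin and epiregulin, were the most abundant ligands, and neither passed the test. AREG (chromosome 4, 74445134 to 74455009) had 164, 167 and 165 CPM in control cells and 157, 157 and 165 CPM in IL17D cells. IL17D replicates 1 and 2 were below all controls, and replicate 3 was among them. The log2 fold change was -0.05 (SE 0.040, edgeR adjusted p = 0.67), with an interval from 0.910-fold to 1.02-fold. EREG (chromosome 4, 74365143 to 74388751) had 315, 319 and 350 CPM in control cells and 341, 344 and 346 CPM in IL17D cells. Control replicate 3 was the highest of all 6 libraries, and the other controls were the lowest. The log2 fold change was 0.07 (SE 0.037, edgeR adjusted p = 0.50), with an interval from 0.995-fold to 1.10-fold. Without control replicate 3 it was 0.12 (edgeR adjusted p = 0.076). The EREG level per kilobase was 0.553, 0.551 and 0.610 of the AREG level in control cells and 0.627, 0.634 and 0.605 of it in IL17D cells, so the groups overlapped at control replicate 3. EREG and AREG lie 56382 bases apart on the same strand. EPGN, another EGF-like ligand gene, ends 49835 bases before EREG, and BTC, on the opposite strand, lies 289749 bases beyond AREG. The table lists 1 other gene between EREG and AREG and 1 between AREG and BTC.

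TGFA and BTC had few counts, 84 to 116 and 38 to 59 per library. TGFA (chromosome 2, 70447280 to 70554193), which encodes transforming growth factor alpha, had 7.14, 6.08 and 7.09 CPM in control cells and 6.50, 5.11 and 6.52 CPM in IL17D cells. BTC (chromosome 4, 74744759 to 74794686), which encodes betacellulin, had 2.65, 3.80 and 3.67 CPM in control cells and 2.31, 2.92 and 3.36 CPM in IL17D cells. Both pairs of groups overlapped. The log2 fold changes were -0.17 for TGFA and -0.24 for BTC, with intervals from 0.713-fold to 1.11-fold and from 0.611-fold to 1.18-fold. The width of an interval followed the counts behind it: its half-width was 0.072 on the log2 scale for EGFR with 4881 to 5807 counts per library, and 0.47 for BTC with 38 to 59.

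**Figure D3:**
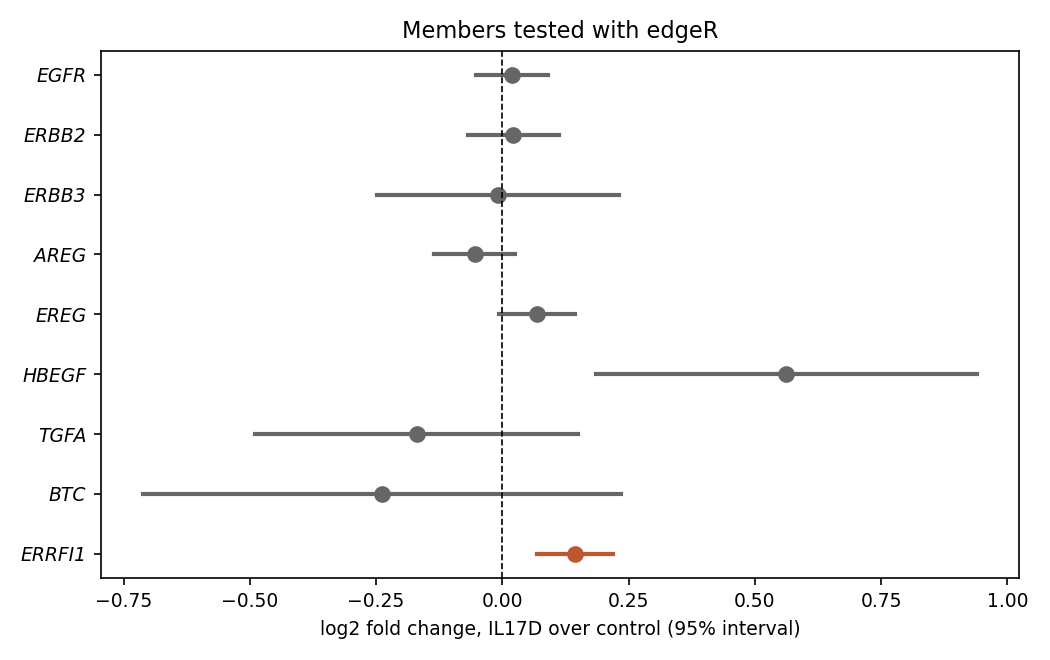
Log2 fold change of IL17D over control cells (x axis) for the 9 tested members (y axis), with lines for the 95% interval from edgeR's quasi-likelihood test on 3 libraries per group. ERRFI1, in orange at 0.14, is the gene with an adjusted p under 0.05, and the interval of HBEGF, at 0.56, also lies above 0.

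Levels of different genes were compared per kilobase of the gene length in the deposited table (RPKM). AREG was highest at 98.5 RPKM over the 6 libraries, 1.68 times EREG at 58.7 RPKM. ERRFI1 followed at 51.6 RPKM, EGFR at 27.5 RPKM and ERBB2 at 10.1 RPKM. The ranges of these 5 genes over the libraries did not overlap between neighbours in this order. Then came a step of 6.67 times down to HBEGF (1.52 RPKM), TGFA (1.29 RPKM), ERBB3 (1.21 RPKM) and BTC (1.11 RPKM), and among these 4 each gene overlapped the next. ERBB4 reached 0.0234 RPKM in IL17D replicate 1, its highest library. The order depends on the length used. With the longest protein-coding transcript of GENCODE release 29, a choice made after seeing the data, EREG (72.7 RPKM) and ERRFI1 (69.6 RPKM) overlapped, ERBB2 stood at 21.9 RPKM, and ERBB3 (1.85 RPKM) stood before TGFA (1.49 RPKM).

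**Figure D4:**
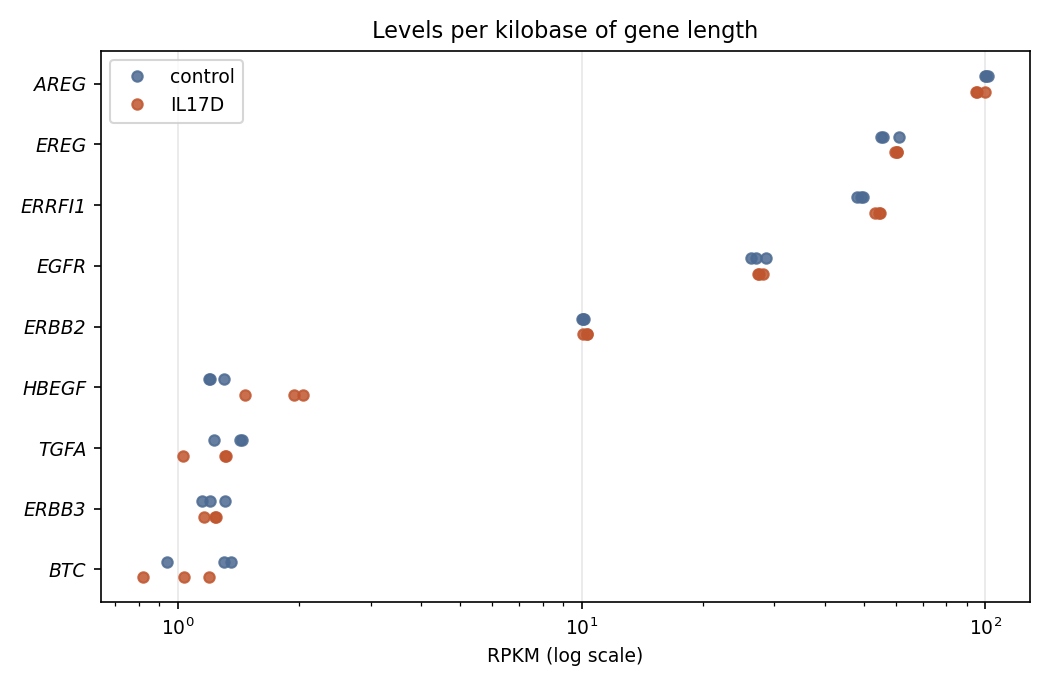
RPKM (x axis, log scale) of 9 members in each of the 3 control (blue) and 3 IL17D (orange) libraries, 1 point per library, in order of mean level; ERBB4 is left out because 4 of its libraries had no count. AREG, EREG, ERRFI1, EGFR and ERBB2 form separate bands, and HBEGF, TGFA, ERBB3 and BTC lie together near 1 RPKM.

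The summed RNA of the member ligands and of the member receptors was nearly the same in both groups. NRG1 and the other EGF-like ligands outside the group are not in these sums. Nearly all of the ligand sum was AREG and EREG, so it could hardly show a change in the other ligands. The 5 ligands summed to 162 ± 3.75 RPKM in control cells and 161 ± 3.09 RPKM in IL17D cells (SD, n = 3 each). The 4 receptors summed to 38.6 ± 1.27 RPKM and 39.1 ± 0.285 RPKM. The ratio of the sums, IL17D over control, was 0.996 for ligands and 1.01 for receptors. AREG made up 62.2% ± 1.37 of the ligand sum in control cells and 60.1% ± 0.626 in IL17D cells, and EREG 35.5% ± 1.30 and 37.4% ± 0.539. For both shares the groups overlapped. HBEGF took 0.760%, 0.741% and 0.784% of the ligand sum in control cells and 1.22%, 1.28% and 0.890% in IL17D cells. EGFR held 70.7% of the receptor sum in either group (SD 0.821 in control cells and 0.739 in IL17D cells). This share depends on the length used: with the longest protein-coding transcript it was 59.6% in either group. These sums are descriptions and were not tested.

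Overlapping genes could add to these values, because the sources used here do not say whether counting used strand. EGFR-AS1, antisense to EGFR, had 9 to 21 counts per library against at least 4881 for EGFR, and TGFA-IT1, inside TGFA, had none.

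The other genes of the pathway were taken from a list of 86 genes in 7 roles, of which 81 were tested. Of these, 4 rose and 3 fell at an adjusted p under 0.05 (8.64% of the 81), against 1.58% of all tested genes (0.673% higher and 0.908% lower). The list was drawn up with earlier results of these data known, among them the rise of MYC and FOSL1. Its count is therefore not independent evidence. The median log2 fold change was 0.03, with 52 higher and 29 lower. None was called among the 4 tested other ligands, the 9 counted genes of the RAS-ERK cascade or the 18 genes of receptor turnover and inhibition. At an unadjusted p under 0.05, edgeR's test found 1, 0 and 2 of them, against 11.6% of all tested genes. The PI3K-AKT arm had 0 of 9 tested genes at either threshold. DESeq2's Wald test called no gene of these roles either.

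**Figure D5:**
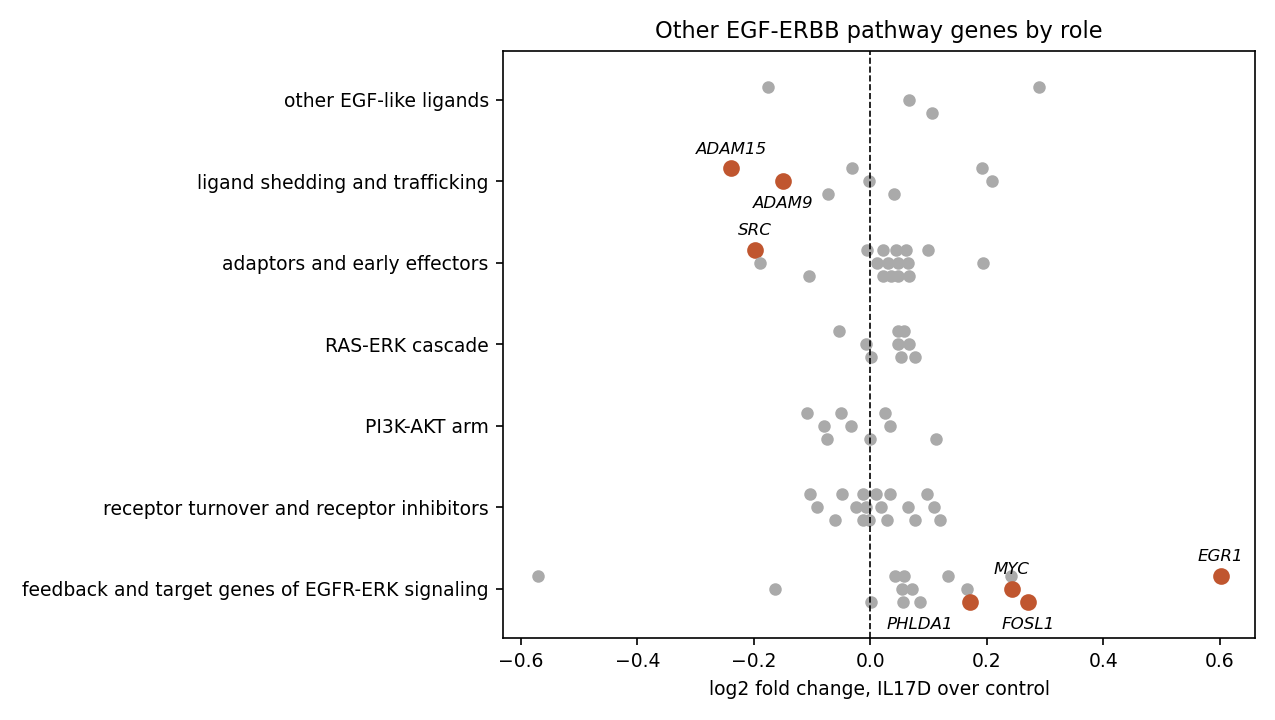
Log2 fold change of IL17D over control cells (x axis) for 81 tested pathway genes by role (y axis), 1 point per gene, with genes at an adjusted p under 0.05 in orange and named. The 7 named genes lie between -0.24 (ADAM15) and 0.60 (EGR1), and the RAS-ERK cascade stays between -0.05 and 0.08.

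Among the other EGF-like ligands, NRG1, a neuregulin that binds ERBB3 and ERBB4, had the highest level, 14.2 RPKM by the deposited gene length. It had 148, 160 and 158 CPM in control cells and 170, 171 and 161 CPM in IL17D cells, without overlap. Its log2 fold change was 0.11 (SE 0.042) and did not pass (edgeR adjusted p = 0.28). NRG2 had 3.94 to 4.12 CPM in control cells and 3.92 to 6.20 CPM in IL17D cells. EGF had 15 to 26 counts per library, NRG4 9 to 37 and EPGN 1 to 6, and NRG3 had none.

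Of the 3 pathway genes that fell, 2 belong to ligand shedding. ADAM15 and ADAM9, both membrane metalloproteases, were lower in all IL17D libraries than in all controls. ADAM15 (chromosome 1, 155050566 to 155062775) had 131, 129 and 129 CPM in control cells and 112, 109 and 109 CPM in IL17D cells. It fell by 0.24 on the log2 scale (SE 0.043, edgeR adjusted p = 0.00081), and the call held without any 1 library. ADAM9 (chromosome 8, 38996869 to 39105144) had 627, 657 and 676 CPM in control cells and 580, 585 and 603 CPM in IL17D cells. It fell by 0.15 (SE 0.032, edgeR adjusted p = 0.0060), and without IL17D replicate 1 the adjusted p was 0.074. ADAM17, the main sheddase of AREG, HBEGF and TGFA, had a log2 fold change of -0.03 (interval -0.13 to 0.07). ADAM10, which releases EGF and BTC, had -0.002 (interval -0.08 to 0.07). Neither passed. The log2 fold changes of the 8 tested genes of this role ran from -0.24 to 0.21. Of these, 2 fell and none rose past the threshold, against 0.908% lower and 0.673% higher among all tested genes. Nothing is drawn from 2 genes about the role.

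Within the cell, 1 of 17 adaptors and early effectors was called, and it fell. Among all tested genes, 0.673% were called higher and 0.908% lower. Nothing is drawn from 1 gene about the role. The called gene was SRC (chromosome 20, 37344685 to 37406050), which encodes a tyrosine kinase. It had 565, 543 and 520 CPM in control cells and 475, 473 and 471 CPM in IL17D cells, a log2 fold change of -0.20 (SE 0.033, edgeR adjusted p = 0.00024). The call held without any 1 library.

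Of 16 feedback and target genes of EGFR-ERK signaling, 4 rose and none fell past the threshold, against 0.673% higher and 0.908% lower among all tested genes. The list was drawn up with earlier results known, among them the rise of MYC and FOSL1, 2 of these 4. This count is therefore not independent evidence. Over all tested genes, 7858 were higher and 7896 lower in direction alone. Of the 16 genes, 14 were higher and 2 lower, with a median log2 fold change of 0.08. The 2 lower genes were SPRY1, an inhibitor of receptor tyrosine kinase signaling (log2 fold change -0.57, SE 0.18, edgeR adjusted p = 0.12), and the transcription factor gene ETV5 (-0.16, SE 0.062, edgeR adjusted p = 0.24). Neither passed, although for both all IL17D libraries lay below all controls. Groups did not overlap for 6 higher and 2 lower genes of the role, against 7.48% higher and 8.31% lower among all tested genes. An unadjusted edgeR p under 0.05 was found for 8 of the 16, against 11.6%. These counts come from the same list and are not independent evidence either. The 4 that rose were the transcription factor genes MYC (0.24), FOSL1 (0.27) and EGR1 (0.60) and PHLDA1 (0.17), and their edgeR adjusted p-values were 6.3e-05, 0.011, 0.030 and 0.030. EGR1 had 7.02, 6.64 and 5.97 CPM in control cells and 9.06, 12.5 and 8.13 CPM in IL17D cells. Its log2 fold change was 0.40 without IL17D replicate 2 (edgeR adjusted p = 0.33), and its adjusted p was 0.064 without control replicate 2 and 0.093 without control replicate 3. EGR1 was also not called by DESeq2 (adjusted p = 0.061) or limma voom (0.056). FOSL1 was not called without control replicate 2 (0.073) or IL17D replicate 1 (0.094). PHLDA1 was not called without control replicate 1 (0.086) or 2 (0.11) or without IL17D replicate 1 (0.16) or 2 (0.21). MYC kept its call without any 1 library. The other genes of this role, among them DUSP4, DUSP6, SPRY2, SPRY4 and ETV4, were not called. The study reports from western blots of these A549 cells that ERK phosphorylation was unchanged by IL17D overexpression and that p38 phosphorylation was induced. Whether ERK, p38 or another pathway bears on these RNA levels was not tested.

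The genes most like ERRFI1 and HBEGF were sought among 9741 tested genes with a mean of at least 10 CPM, by Pearson's r of log2 CPM over the 6 libraries. These values describe 2 groups of 3 libraries that share depth and culture, and carry no test. For ERRFI1 the closest were PABPC1L (r = 0.996), RIMKLB (r = 0.995) and NKX2-5 (r = 0.994), and 226 genes reached 0.9. For HBEGF they were PHLDA1 (r = 0.996), MIS18A (r = 0.990) and KCTD9 (r = 0.986), and 116 genes reached 0.9. PHLDA1 had 137, 136 and 138 CPM in control cells and 156, 161 and 144 CPM in IL17D cells. Its IL17D replicate 3 was the lowest of its group, as for HBEGF. PHLDA1 was picked for its high r with HBEGF, so this shared order follows from the choice and adds no evidence of a link.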

How the data were processed

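RNA-seq libraries of IL17D-overexpressing and empty-vector A549 cells (3 each) were compared. The authors deposited raw counts per gene, without normalization. The submitters' processing notes name Bowtie2 and hg38; the counting tool and strand setting are not given in the sources used here. Gene positions and the other deposited values used, gene lengths in bases, come from the same table; 58724 of 58735 genes have the coordinates of GENCODE release 29. Total counts per library (14319398 to 16521021) set the precision, and intervals and limits cover counting error and replicate spread only.

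Genes were kept by edgeR's filterByExpr, scaled by TMM and compared by the quasi-likelihood test without covariates (edgeR 4.0.16, R 4.3.3), with Benjamini-Hochberg adjustment over 15754 genes. All tests were two-sided. Standard errors and 95% intervals were derived from the F statistic. CPM refer to TMM-scaled library sizes, and RPKM are CPM per kilobase. Alternatives used DESeq2 1.42.0, limma 3.58.1 (voom), other scalings and filters, the replicate number as a block, and each library left out; tables and plots were made with Python 3.11.15, pandas 2.3.3 and matplotlib 3.10.9. The test was checked on simulated data with 100 changed genes of each size among 15502 genes. It called 49% of changes of 0.25 in log2 and 85% of changes of 0.5, with 11 wrong calls in all. The changed genes were drawn only from genes above a set mean count. BTC and other genes with few counts lay below it, so these shares do not cover them.

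The members, the pathway list and the markers were chosen with earlier results of these data known. Named were all members and IL17D, all other EGF-like ligands, pathway genes with an adjusted p under 0.05 or among the 3 smallest p-values in each direction, the markers, and the 3 genes most like each of the 2 members with the smallest p. ADAM17, ADAM10, SPRY1, ETV5, DUSP4, DUSP6, SPRY2, SPRY4, ETV4 and the overlapping genes were named beyond this rule, after their values were seen. A further 2 genes of the pathway are not reported here and are left out of the counts of the list.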

Additional observations from a re-analysis of the deposited data

How the results depend on the processing

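The call of ERRFI1 held under all 7 alternatives that kept the 6 libraries and was lost in 5 of the 6 cases with 1 library left out, so that 0 to 1 members were called there. Under the same cases, 4 to 7 of the pathway genes and 145 to 267 of all genes were called (7 and 249 with all libraries). Leaving out control replicate 2 or IL17D replicate 1 gave 4 pathway genes. All genes were 155 without IL17D replicate 1 and 145 without IL17D replicate 3, and fewer samples leave less power. The ratio of the summed levels, IL17D over control, was 0.985 to 1.01 for ligands and 1.001 to 1.03 for receptors with 1 library left out. Directions that turned belonged to genes that were not called: EGFR had a log2 fold change of -0.006 without control replicate 1, ERBB3 0.046 without control replicate 3 and 0.024 without IL17D replicate 2, EGF -0.094 without control replicate 3 and -0.085 without IL17D replicate 1, and NRG4 0.300 without control replicate 3. Over all cases with 1 library left out these ran from -0.006 to 0.055 for EGFR, -0.049 to 0.046 for ERBB3, -0.094 to 0.324 for EGF and -0.523 to 0.300 for NRG4. The median of all genes moved by 0.003 or less in log2 under other scalings. With the replicate number as a block, 1 member, 7 pathway genes and 272 genes in all were called, and ERRFI1 had an adjusted p of 0.040 from the edgeR test. Deviations of same-numbered libraries correlated between -0.0151 and 0.00997, and those of differently numbered libraries between -0.0414 and 0.054. No shared effect of the replicate number was visible. This does not settle how the replicates were made. NRG4 gave no value with at least 10 counts required in every library. Within a group, the spread between libraries exceeded counting noise (chi-square per degree of freedom 2.20 to 3.38).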
